A study of Mus musculus with 15 samples.

Results

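Tuft cells were followed in the mouse pancreas through 8 genes that mark them: Dclk1, Pou2f3, Trpm5, Avil, Sh2d6, Il25, Alox5ap and Ptgs1. The 8 genes were taken by name, as markers of the tuft cells of metaplastic epithelium, from the 49585 genes that the count tables list. Their read counts were examined in all 15 libraries. Tuft cells are rare chemosensory epithelial cells that carry a brush of actin-cored microvilli and signal through a taste-like cascade. They arise in the pancreas when acinar cells undergo metaplasia in pancreatitis and around early neoplastic lesions, and are scarce in the healthy exocrine gland. POU2F3 is the octamer-binding transcription factor that specifies them, and their known outputs are the cytokine IL-25, acetylcholine and lipid mediators of the eicosanoid family.

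The series held 3 experiments on pancreas of C57BL/6 mice, each library made from RNA pooled from 3 mice. In the first, 3 libraries of cerulein-treated MC mice (genotype HPK1-M46 transgenic, 2 months) were set against 3 of B control mice of the same age and treatment. In the second, 3 libraries labelled HC (genotype HPK1/B, 4 months), cerulein-treated, were set against 2 labelled WT of the same age. Cerulein treatment of the WT libraries is read from the series design text. That text names the control group B rather than WT, so their treatment is uncertain. In the third, 2 KMC libraries (M46/Ras/B, 9 months) were set against 2 KC libraries (Ras/B, 15 months), with no treatment given in the labels for either group. The labels call their tissue pancreas, and the study describes these mice's samples as pancreatic ductal adenocarcinoma. HPK1, encoded by Map4k1, is a serine/threonine kinase and M46 its kinase-dead form. Either transgene was switched on by Bac-cre, a tamoxifen-inducible Cre recombinase driven by the elastase promoter of acinar cells. Whether tuft cells that arise from acinar cells carried the transgene was not tested.

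Each library held 29766575 to 38745907 counts, at which 3 counts, taken here as the floor of detection, correspond to 0.0774 to 0.101 CPM, the usual scaling of a count to its library's total. Floors and counts cover counting error only. Map4k1, the targeted gene, had 246, 289 and 304 counts in MC against 115, 139 and 52 in the control, and 241 and 955 in KMC against 8 and 40 in KC. It had 248, 159 and 250 counts in the libraries labelled HC against 537 and 450 in their control. These counts do not show the labelled transgene, so these are called the libraries labelled HC throughout. The study also places HPK1 in T cells. The leukocyte list had a median log2 fold change of -0.85 in the libraries labelled HC, 0.89 in MC and 2.37 in KMC, each against its control. The part of leukocytes in the Map4k1 counts was not tested in any comparison. The higher Map4k1 counts of MC and KMC are therefore not read as showing their transgene. Genes of acinar digestive enzymes took 36.8 to 55.8% of counts in the MC experiment and 24.7 to 68.9% in the KMC experiment, but 5.75 to 8.98% in the HC experiment. Within the KMC experiment the share was 24.7 to 48.7% in KMC and 60.1 to 68.9% in KC. KMC and KC also differed in Xist, the transcript of the inactive X, with 16505 and 25689 counts in KMC and 10 and 9 in KC, so that the sex of the mice cannot be told apart from genotype in that comparison. In the HC experiment, Ddx3y of the Y chromosome had 1525 counts in HC 3 and 0 in the other 4 libraries. P-values below measure the spread between pooled libraries, and in bulk tissue fewer tuft cells cannot be told apart from less RNA per cell.

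The genes lie apart in the genome (GRCm38), all 8 being protein coding. Dclk1 spans chr3:55242364-55539068 on the plus strand, Pou2f3 chr9:43123939-43210369 on the minus strand and Trpm5 chr7:143069153-143094642 on the minus strand. Avil spans chr10:127000709-127020994 (plus), Sh2d6 chr6:72513641-72521707 (minus), Il25 chr14:54932695-54935837 (plus), Alox5ap chr5:149264767-149288153 (plus) and Ptgs1 chr2:36230426-36252272 (plus). The strand setting of the counting is not given in the sources used here. Tssc4 overlaps Trpm5 on the opposite strand, with up to 519 counts in the MC table, and Tsfm overlaps Avil likewise, with up to 422, so the low Trpm5 and Avil counts of the MC and KMC experiments are uncertain.

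RefSeq promoter sequence (GRCm38.p6) was found for 5 of the 8 genes. The 250 bases before the start are shown for members that were high together in the HC experiment below, 5′ to 3′ on the strand of the gene. Dclk1 has 2 starts, and its counts pool the transcripts of both. The Sh2d6 start used lies inside the span given for the gene above, so the sequence before its outermost start was not searched. Capitals mark ATGCAAA or its complement TTTGCAT, the octamer ATGCAAAT without its last base.
Avil, chr10:127000459-127000708, plus strand: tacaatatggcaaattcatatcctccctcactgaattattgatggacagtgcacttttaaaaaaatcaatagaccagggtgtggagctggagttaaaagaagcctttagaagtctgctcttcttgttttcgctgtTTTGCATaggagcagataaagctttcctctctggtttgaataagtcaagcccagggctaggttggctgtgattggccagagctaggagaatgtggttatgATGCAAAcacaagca
Trpm5, chr7:143094643-143094892, minus strand: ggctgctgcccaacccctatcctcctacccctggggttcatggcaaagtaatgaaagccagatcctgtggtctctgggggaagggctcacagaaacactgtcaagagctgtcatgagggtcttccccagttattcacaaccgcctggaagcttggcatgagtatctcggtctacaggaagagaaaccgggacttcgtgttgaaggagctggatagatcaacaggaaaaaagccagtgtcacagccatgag
Sh2d6, chr6:72520037-72520286, minus strand: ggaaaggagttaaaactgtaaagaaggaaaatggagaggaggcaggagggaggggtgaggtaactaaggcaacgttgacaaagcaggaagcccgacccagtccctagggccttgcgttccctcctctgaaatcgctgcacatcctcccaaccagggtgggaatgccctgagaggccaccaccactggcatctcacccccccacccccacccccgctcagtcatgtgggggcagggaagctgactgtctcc
Dclk1, chr3:55242114-55242363, plus strand: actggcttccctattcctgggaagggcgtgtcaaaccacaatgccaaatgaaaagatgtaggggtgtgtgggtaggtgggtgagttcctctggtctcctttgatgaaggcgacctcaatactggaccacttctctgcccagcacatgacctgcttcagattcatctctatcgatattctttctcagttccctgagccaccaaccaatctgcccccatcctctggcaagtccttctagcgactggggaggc
Dclk1, chr3:55461478-55461727, plus strand: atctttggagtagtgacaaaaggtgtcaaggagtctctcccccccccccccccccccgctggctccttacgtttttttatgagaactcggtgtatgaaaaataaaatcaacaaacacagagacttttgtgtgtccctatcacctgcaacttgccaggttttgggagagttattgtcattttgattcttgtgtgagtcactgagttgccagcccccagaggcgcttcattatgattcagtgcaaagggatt
Only Avil, of the 6 promoters searched (those above and that of Ptgs1), held ATGCAAA on either strand, with matches 115 and 15 bases before the start, and none held the whole octamer. Over all 32851 promoters of that length, 4.12% held ATGCAAA and 1.60% the octamer on either strand. A match describes these letters only.

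The tuft cell genes were abundant in the HC experiment, controls included, and most of them were near the floor elsewhere. Levels across the 3 experiments stand side by side without a test, because the tables were prepared separately. Pou2f3 had 211 to 821 counts in the 5 libraries of the HC experiment, against 0 to 6 in the 6 libraries of the MC experiment and 1 to 8 in the 4 of the KMC experiment. Sh2d6, an SH2-domain adaptor, had 664 to 2019 counts in the HC experiment, 1 to 7 in the MC experiment and 0 to 3 in the KMC experiment. Trpm5, the cation channel that depolarises taste and tuft cells, had 2148 to 8061 counts, against 9 to 47 and 4 to 55. Every library of the HC experiment exceeded every other library for these genes, by a wide margin. Avil, which encodes the actin-bundling protein advillin, had 3182 to 6908 counts in the HC experiment, 6 to 24 in the MC experiment and 5 to 60 in the KMC experiment. Il25 had only 10 to 27 counts in the HC experiment and 0 to 2 in the KMC experiment. Il25 is not listed in the table of the MC experiment, which holds 15175 genes.

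Dclk1 and Ptgs1 were also higher in every library of the HC experiment than in any other, while Alox5ap overlapped between experiments. Alox5ap, which encodes the 5-lipoxygenase activating protein FLAP, reached 10.8 CPM per kb of exon in the MC experiment and 18.1 in the KMC experiment, against 12.3 to 19.2 in the HC experiment. Ptgs1, which encodes cyclooxygenase-1, lay at 10.6 to 13.5 CPM per kb in the HC experiment, and at 0.637 to 2.58 and 0.341 to 8.59 in the others. Both proteins act in eicosanoid synthesis and are also made by leukocytes and platelets. Dclk1, a microtubule-associated kinase, lay at 8.68 to 23.1 CPM per kb in the HC experiment, 0.133 to 0.732 in the MC experiment and 0.0325 to 2.86 in the KMC experiment.

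**Figure D1:**
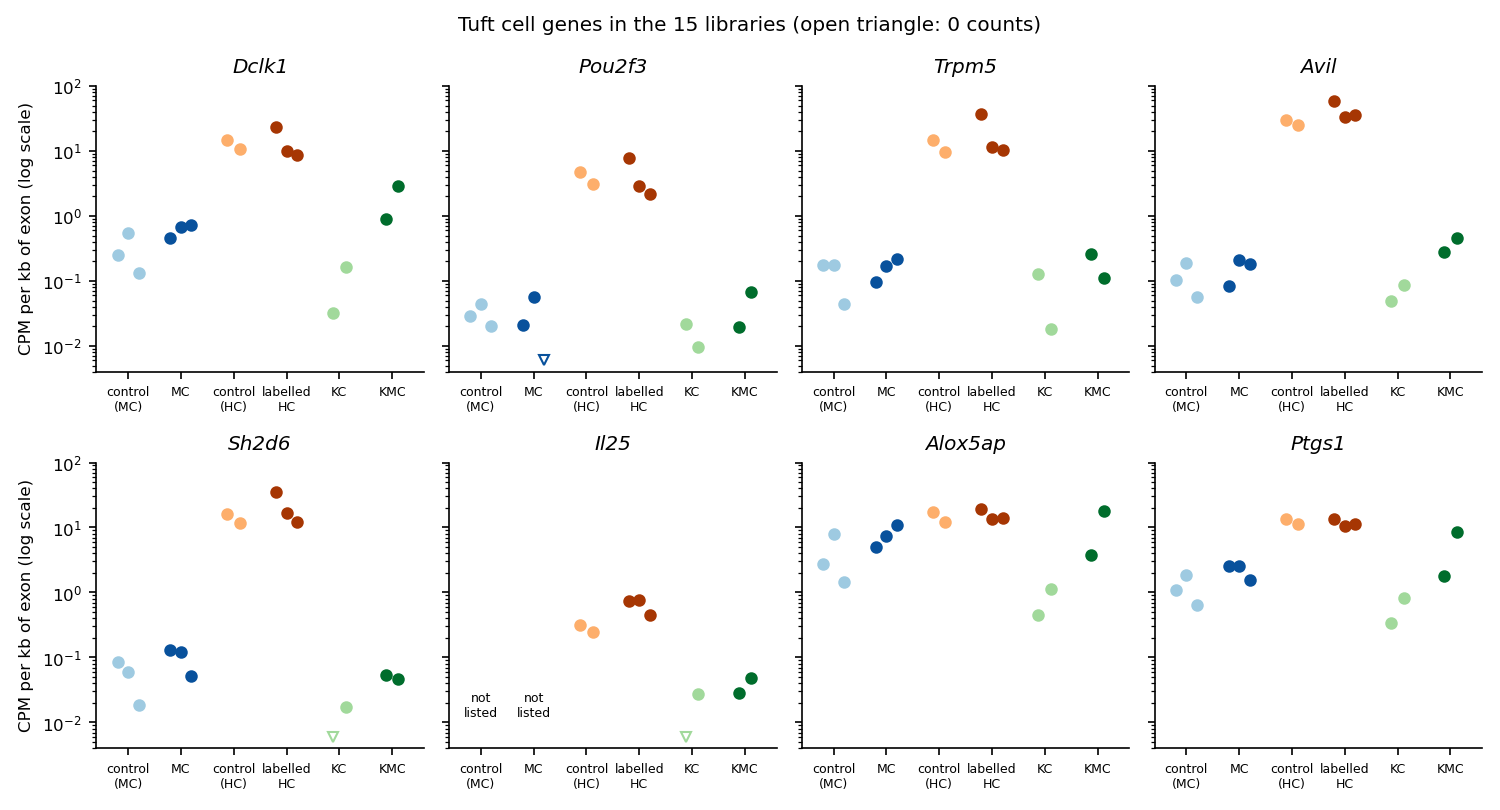
Level of each tuft cell gene in the 15 libraries, as CPM of total counts per kb of exon on a log scale. Each point is 1 library, and an open triangle at the bottom stands for 0 counts. Pou2f3, Trpm5, Avil and Sh2d6 sit far higher in the 5 libraries of the HC experiment than in the other 10, whereas Alox5ap ranges overlap between experiments.

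Ranked per kb of exon, Avil led in the control of the HC experiment at 27.5 ± 3.91 CPM per kb (SD, n = 2). Alox5ap, Sh2d6, Dclk1, Ptgs1 and Trpm5 followed at 12.3 to 14.9, each range overlapping that of the next gene in the order. Pou2f3 came next at 3.94 ± 1.14, below all of these, and Il25 last at 0.285 ± 0.0511. In the MC control the order was different, with Alox5ap at 4.02 ± 3.39 (n = 3) first, Ptgs1 and Dclk1 after it, and Pou2f3 last at 0.0308 ± 0.0117. The exon length of Dclk1 pools its long and short transcripts (15.3 kb), which lowers its level per kb.

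In the same 5 libraries that were rich in tuft cell genes, genes of surface mucous cells were also high. Muc5ac, a gastric mucin, had 4402 to 30529 counts, and Gkn1 12566 to 97779. Of the 11 genes of the stomach list, Atp4b and Chia1 had at most 3 counts in every one of these libraries, and of the 8 genes of the intestine list, Sis, Cdx1 and Cdx2 likewise. Other genes of both lists were present, with Atp4a at 3.54 CPM in HC 1 and a median of 3.42 in the other 4, Pgc at 7.50 and 28.8, Alpi at 12.6 and 5.77, and Cdh17 at 3.75 and 8.96. The part of these cells in the tuft cell genes' level was not tested.

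In the libraries labelled HC, none of the 8 tuft cell genes passed the threshold against their control, which was an adjusted p of at most 0.05 by edgeR's quasi-likelihood test and a log2 fold change of at least 1 in size. Over all 18407 genes tested, 0.565% passed. All 8 members were tested, 2 had an unadjusted p under 0.05, both higher, where 8.39% of all genes did so and 15.9% in either direction, and DESeq2 called 0. The median log2 fold change was 0.40 over the members and -0.00 over all genes. In the same comparison 8 of 8 tested stomach genes were positive, with a median of 1.47 and a summed CPM of 9191 to 9357 against 2436 to 4109, and 7 of 7 endocrine genes were positive, with a median of 0.77. Their part in the members' values was not tested.

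Il25 had the largest difference. It measured 0.797, 0.826 and 0.475 CPM in the libraries labelled HC and 0.344 and 0.256 in the control. All 3 libraries labelled HC were above both controls, but on 27, 26 and 15 counts against 12 and 10. The log2 fold change was 1.22 ± 0.43 (SE), with an adjusted p of 0.247 by edgeR. Avil measured 204, 116 and 122 CPM against 104 and 81.4, again without overlap, and its log2 fold change was 0.67 ± 0.27, with an adjusted p of 0.305 by edgeR. Groups did not overlap, with the libraries labelled HC higher, for 17.5% of all genes tested.

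The direction of several members rested on single libraries, most often HC 1 or control 2. Trpm5 measured 238, 74.6 and 68.1 CPM in the libraries labelled HC against 96.5 and 60.1 in the control. Only HC 1 lay above the control range, and the log2 fold change of 0.70 ± 0.58 (edgeR, adjusted p 0.619) became -0.13 without it. Pou2f3 measured 24.2, 8.99 and 6.69 CPM against 14.8 and 9.36, with a log2 fold change of 0.14 ± 0.55 that became -0.62 without HC 1. Dclk1 measured 355, 155 and 134 CPM against 226 and 159. Its log2 fold change of 0.16 ± 0.43 became -0.41 without HC 1, since the other two lay below both controls. Sh2d6 measured 59.6, 28.8 and 21.0 CPM against 27.3 and 19.2, with a log2 fold change of 0.65 ± 0.44 and of 0.10 without HC 1. Avil at 0.36 and Il25 at 1.11 kept their direction without that library. Alox5ap (27.5, 19.1 and 19.7 CPM against 25.0 and 16.9) and Ptgs1 (52.5, 41.4 and 43.7 against 52.4 and 43.1) overlapped their controls, with log2 fold changes of 0.08 ± 0.23 and -0.06 ± 0.14, and of -0.11 and -0.17 without HC 1. Without control 2, Dclk1 was at -0.08, Pou2f3 at -0.15 and Alox5ap at -0.18, while the other members kept their direction. Ptgs1 turned to 0.015 without HC 2 and to 0.088 without control 1.

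**Figure D2:**
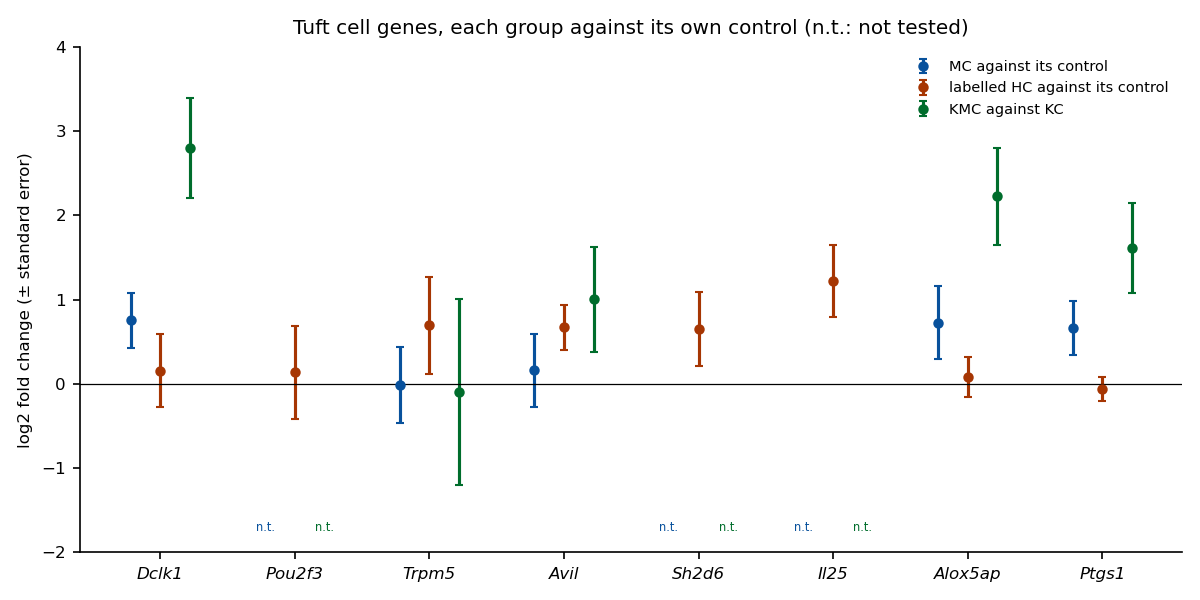
Log2 fold change of each tuft cell gene against its own control in the 3 comparisons, as points with standard errors (edgeR). Dclk1, Alox5ap and Ptgs1 are farthest above 0 in KMC against KC at 2.80, 2.23 and 1.61, and n.t. marks a gene that was not tested.

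Set against the median of the other 4 libraries of the experiment, HC 1 was higher for 8 of 8 members, by a median of 2.06-fold, and was the highest of the 5 libraries for 7 of 8, where 17.4% of all genes were highest in it. The exception was Il25, highest in HC 2. The ratio was 3.34 for Trpm5, 2.64 for Pou2f3, 2.47 for Sh2d6, 2.26 for Dclk1 and 1.85 for Avil. It was smaller for Alox5ap at 1.41 and Ptgs1 at 1.21. Among 32 tested genes of 4 wider tuft cell lists, HC 1 was the highest library for 21. Gng13, a taste G protein subunit, stood at 5.15-fold, and Hmx2, a homeobox factor, at 3.52-fold. Chat, which makes acetylcholine, measured 4.31 CPM against a median of 1.05 in the others. Gnat3, which encodes gustducin, stood at 3.29-fold, and Spib at 3.01-fold. Of the 8 tested taste genes 5 were above the median of the others, and Tas1r1 at 0.814-fold, Sucnr1 at 0.923-fold and Itpr3 at 0.979-fold were below it, as were Ascl2 at 0.797-fold and Ptgs2 at 0.920-fold.

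HC 1 also stood highest for mast cell genes, with 7 of 7 tested above the median of the others and a median ratio of 3.22. Cpa3, a mast cell carboxypeptidase, stood at 3.29-fold and Mcpt4 at 3.40-fold. Its summed mast cell CPM was 141, against 46.1 to 56.3 in the other 4 libraries. The leukocyte list stood at a median of 0.794-fold and the ductal list at 0.998-fold in that library. The part of mast cells in the level of the tuft cell genes was not tested.

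**Figure D3:**
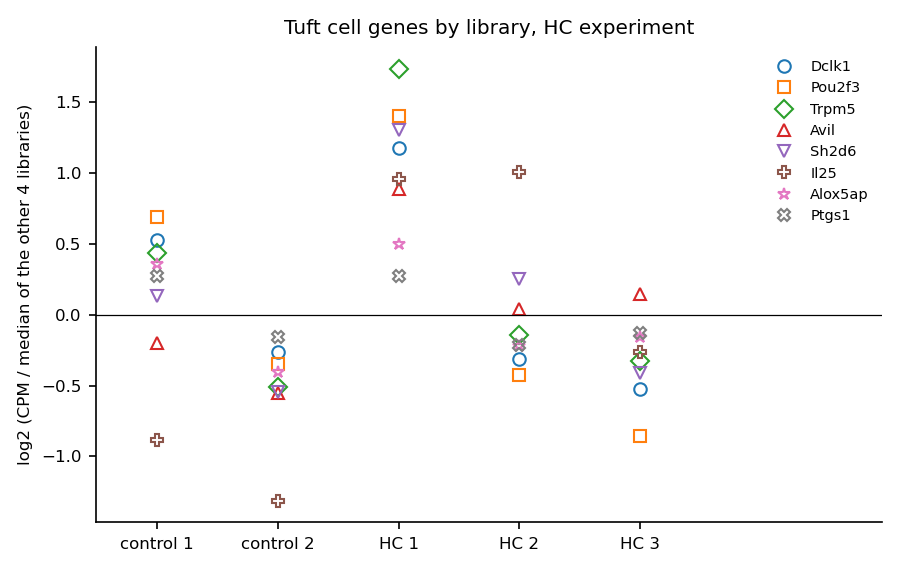
Log2 ratio of each tuft cell gene's CPM to its median in the other 4 libraries, for each library of the HC experiment. All 8 genes are above 0 in HC 1, and all 8 are below 0 in control 2.

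Counts of the members were also set against those of Pou2f3 in the same library. The ratio of Dclk1 to Pou2f3 counts was 14.6, 17.3 and 20.1 in the libraries labelled HC and 15.3 and 17.0 in the control. The ratio of Trpm5 to Pou2f3 was 9.82, 8.30 and 10.2 against 6.52 and 6.42, and that of Sh2d6 to Pou2f3 was 2.46, 3.20 and 3.15 against 1.84 and 2.05. Both of these last ratios were higher in every library labelled HC than in either control, without a test. The ratio of Avil to Pou2f3 was 8.41, 12.9 and 18.2 against 7.02 and 8.69, and that of Alox5ap to Pou2f3 was 1.13, 2.13 and 2.95 against 1.69 and 1.80, with HC 1 the lowest of the 3 libraries labelled HC in both.

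In MC, none of the 5 tested members passed the threshold against the control, where 0% of all 13902 genes passed, 2038 had an unadjusted p under 0.05 and DESeq2 called 475. None of the 5 members had an unadjusted p under 0.05, against 9.2% of all genes in the higher direction and 14.7% in either, and DESeq2 called 0 of them. Pou2f3 and Sh2d6 were too low to test and Il25 is not listed. The median log2 fold change was 0.66 over the 5 members and -0.02 over all genes.

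Dclk1 measured 7.33, 8.36 and 9.31 CPM in MC and 4.30, 7.53 and 2.88 in the control. The groups overlapped in 1 library, control 2 (10.9% of all genes did not overlap with MC higher), and the log2 fold change was 0.76 ± 0.33 (edgeR, adjusted p 0.341). Alox5ap measured 7.47, 8.55 and 12.7 CPM against 4.46, 9.88 and 2.88, with a log2 fold change of 0.73 ± 0.43 (edgeR, adjusted p 0.435). Here too control 2 lay within the MC range. Without control 2 both passed, as did 718 of all genes, Dclk1 at 1.21 (edgeR, adjusted p 0.0364) and Alox5ap at 1.37 (edgeR, adjusted p 0.0458), while over all alternatives the adjusted p ranged from 0.0364 to 0.72 and from 0.0458 to 0.745. Ptgs1 measured 10.6, 7.89 and 4.96 CPM against 4.86, 6.34 and 3.50, at 0.66 ± 0.32 (edgeR, adjusted p 0.374).

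Trpm5, Avil, Pou2f3 and Sh2d6 were low in both groups. Trpm5 had 19, 37 and 47 counts in MC and 39, 33 and 9 in the control, and a log2 fold change of -0.01 ± 0.45. Avil had 9, 24 and 21 counts against 12, 19 and 6, at 0.16 ± 0.43. Pou2f3 had 2, 6 and 0 counts against 3, 4 and 2, and Sh2d6 7, 7 and 3 against 5, 3 and 1. No difference was detected in Trpm5 or Avil at this depth, and Pou2f3 and Sh2d6 could not be tested. Of the leukocyte list, 10 of 10 tested genes had a positive log2 fold change in the same comparison, with a median of 0.89 and a summed CPM of 787 to 1170 in MC against 412 to 1143 in the control, the highest of the controls being control 2. The fibroblast list was positive for 7 of 7 genes, with a median of 0.69, and the acinar list negative for 25 of 28, with a median of -0.58. The part of these cells in the Dclk1 and Alox5ap values was not tested.

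In KMC against KC, none of the 5 tested members passed, where 0.0191% of all 15733 genes did, and 3 of the 5 had an unadjusted p under 0.05, all higher, where 16.1% of all genes did so and 25.6% in either direction. DESeq2 called 3 of the members and 2130 of all genes. Pou2f3, Sh2d6 and Il25 were too low to test. The median log2 fold change was 1.61 over the members and 0.03 over all genes, and 4 of 5 members did not overlap between groups with KMC higher, against 34.4% of all genes. With scaling to library size alone the median of all genes moved to 1.47, so the values below are relative to TMM scaling.

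Dclk1 measured 11.0 and 20.2 CPM in KMC and 1.02 and 3.33 in KC, on 449 and 1697 counts against 15 and 86. Both KMC libraries lay above both KC libraries, and the log2 fold change was 2.80 ± 0.59 (edgeR, adjusted p 0.0796). Alox5ap measured 4.37 and 11.8 CPM against 1.29 and 2.13, at 2.23 ± 0.58 (edgeR, adjusted p 0.101). Ptgs1 measured 5.70 and 15.4 CPM against 2.72 and 4.14, at 1.61 ± 0.53 (edgeR, adjusted p 0.136). For each of the 3 genes KMC 2 was the highest library. DESeq2 gave adjusted p-values of 8.53e-05 for Dclk1, 0.00387 for Alox5ap and 0.0364 for Ptgs1, and over all alternatives the adjusted p ranged from 1.78e-05 to 0.534, from 0.000306 to 0.559 and from 0.00121 to 0.748. All 3 passed without KMC 1, while without KMC 2 the log2 fold changes of Alox5ap and Ptgs1 were 1.35 and 0.74.

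Pou2f3, Sh2d6 and Il25 stayed at a few counts in both groups. Pou2f3 had 2 and 8 counts in KMC and 2 and 1 in KC, Sh2d6 3 and 3 against 0 and 1, and Il25 1 and 2 against 0 and 1. Trpm5 had 55 and 28 counts in KMC and 25 and 4 in KC, and its log2 fold change was -0.10 (edgeR, adjusted p 0.964). Avil had 31 and 60 counts against 5 and 10, without overlap, at 1.0 ± 0.63 (edgeR, adjusted p 0.335).

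Markers of several other cell types moved with the 3 genes. Of the leukocyte list, 11 of 11 genes had a positive log2 fold change in KMC, with a median of 2.37 and a summed CPM of 699 to 2244 against 225 to 263, and none was at or under the floor in every library. Of the fibroblast list, 7 of 7 were positive, with a median of 2.63 and a summed CPM of 2119 to 6198 against 424 to 883. Of the ductal list 7 of 7 were positive, with a median of 0.84, and of the acinar list 28 of 29 were negative, with a median of -2.01. The groups also differed in age, and age cannot be told apart from genotype here. The part of these cells was not tested.

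Counts were also set against Ptprc, the pan-leukocyte gene CD45, and those of Dclk1 against Epcam, an epithelial gene, in the same library. The ratio of Dclk1 to Ptprc was 0.330 and 0.345 in KMC and 0.326 and 0.331 in KC. In MC it was 0.178 to 0.204, below the 0.321 to 0.380 of the control. In the libraries labelled HC it was 2.74 to 5.67, above the 1.95 to 2.19 of their control, and in all 5 libraries it exceeded those of the other experiments. The ratio of Dclk1 to Epcam was 0.168 and 0.194 in KMC, above the 0.0216 and 0.0695 of KC, and 0.0743 to 0.0866 in MC, above the 0.0356 to 0.0646 of the control. In the libraries labelled HC it was 0.252 to 0.693, against 0.309 and 0.483 in their control, and the groups overlapped. Relative to Ptprc and to Epcam, Dclk1 thus compared differently between groups. The ratio of Alox5ap to Ptprc was 0.131 to 0.202 in KMC against 0.212 to 0.413 in KC, 0.195 to 0.242 in MC against 0.333 to 0.499, and 0.403 to 0.547 in the libraries labelled HC against 0.215 to 0.233. Relative to Ptprc, Alox5ap was thus lower in MC and KMC than in their controls in every library, and higher in every library labelled HC. All 11 leukocyte genes had a negative log2 fold change in the libraries labelled HC, with a median of -0.85, which enters these ratios.

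**Figure D4:**
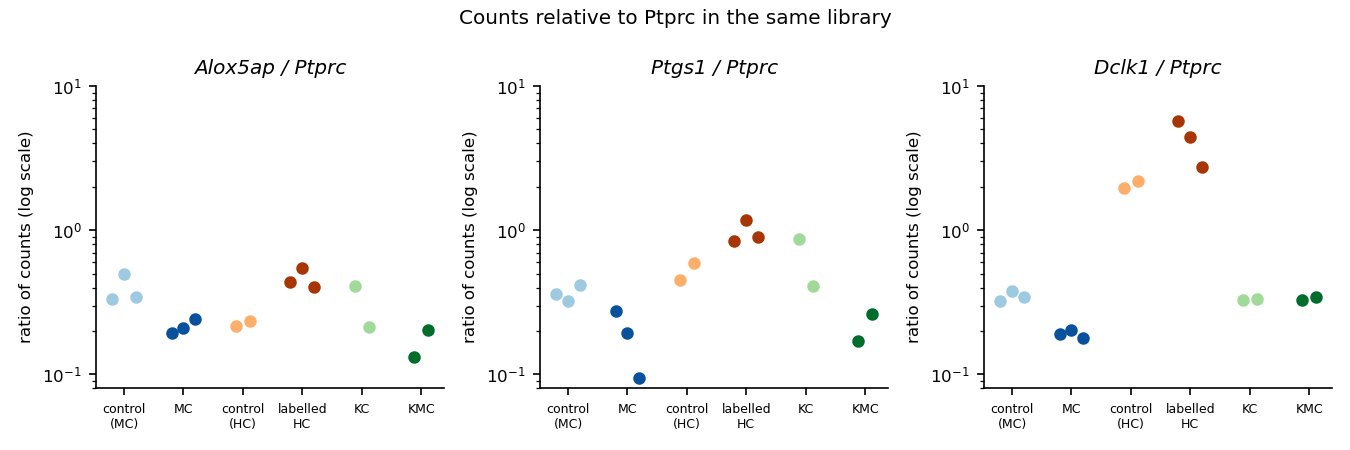
Counts of Alox5ap, Ptgs1 and Dclk1 divided by Ptprc counts of the same library, on a log scale, with 1 point for each library. Dclk1 ratios sit between 1.95 and 5.67 in the HC experiment and at or under 0.380 in all other libraries.

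The log2 fold change of MC and that of the libraries labelled HC, each against its own control, were compared in a test of their difference. Of the 5 members tested in both experiments, none passed, where 2.18% of 14884 genes did. Ptgs1 had the lowest adjusted p, at 0.325 by edgeR, for a difference of 0.71 ± 0.39 with MC the higher. Dclk1 differed by 0.59 ± 0.58 and Alox5ap by 0.64 ± 0.56 in the same direction, and Trpm5 by -0.73 ± 0.82 and Avil by -0.52 ± 0.49 in the other. Pou2f3 and Sh2d6 entered that fit only through the HC experiment, and nothing is read from their values.

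Wider lists of tuft cell genes held 33 further genes, of which none passed in any comparison by edgeR. In MC, 18 of 22 tested were positive, where 46.9% of all genes were, with a median log2 fold change of 0.59. At an unadjusted p under 0.05, 9 were higher and 1 lower, where 9.2% of all genes were higher and 14.7% passed in either direction. The largest was Spib, an Ets factor of tuft cells that B cells and dendritic cells also make, at 3.39 ± 0.66 (edgeR, adjusted p 0.0942). Ltc4s, which makes leukotriene C4, differed by 1.60 ± 0.39, and Lrmp by 0.59 ± 0.15. In the libraries labelled HC, 22 of 32 were positive, where 49.8% of all genes were, with a median of 0.25. At an unadjusted p under 0.05, 3 were higher and 1 lower, where 8.39% of all genes were higher and 15.9% passed in either direction. Vil1, the microvillus protein villin, had the lowest p, at 0.79 ± 0.13 (edgeR, adjusted p 0.0614), and Plcb2, the phospholipase of the taste cascade, had -0.91 ± 0.34 (edgeR, adjusted p 0.273). In KMC, 20 of 25 were positive, where 51.3% of all genes were, with a median of 1.13. At an unadjusted p under 0.05, 10 were higher and 0 lower, where 16.1% of all genes were higher and 25.6% passed in either direction.

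Within those lists the eicosanoid enzymes had the highest medians in MC and KMC. Their median log2 fold change was 0.98 over 5 tested genes in MC, -0.06 over 6 in the libraries labelled HC and 2.45 over 6 in KMC. Hpgds, the hematopoietic prostaglandin D synthase, measured 8.44 and 12.2 CPM in KMC and 0.340 and 1.66 in KC, a log2 fold change of 3.28 ± 0.66 (edgeR, adjusted p 0.0796). In KMC, Vav1 at 2.97 ± 0.49 and Plcb2 at 3.39 ± 0.87 had the lowest p of the structural and taste lists, and both are also blood cell genes. Sox9 and Krt18, which ductal cells share, were at 0.04 ± 0.32 and -0.46 ± 0.49 there. Of the 9 taste genes, Gnat3 had 93 to 423 counts in the HC experiment and 0 to 2 in the KMC experiment. Gng13 had 13 to 83 and 0, and Ffar3 36 to 145 and 1 to 7. Itpr3 had 8954 to 11726 and 195 to 5024, Sucnr1 37 to 97 and 8 to 27, and Tas1r3 38 to 54 and 4 to 33. Ranges overlapped or met for Plcb2 at 163 to 586 and 1 to 669, Tas1r1 at 14 to 23 and 6 to 16, and Gnb3 at 6 to 9 and 0 to 6. Genes of type 2 immunity, the response that IL-25 feeds, had medians of 0.67 over 6 genes in MC, -0.12 over 8 in the libraries labelled HC and 1.79 over 8 in KMC. The alarmin gene Il33 stood at 1.38 ± 0.34 in MC (edgeR, adjusted p 0.156) and the receptor gene Il4ra at 3.14 ± 0.67 in KMC (edgeR, adjusted p 0.0796).

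The genes most like each member were sought by Pearson's r of log2 CPM over 15 libraries, after centring each table, among genes of at least 1 CPM in every table. That limit leaves out tuft cell genes low in the MC table. Libraries share acinar content and depth, so r is a description. Dclk1 was most like Hpgds (r = 0.984), Fyb (0.979) and Nav1 (0.977). Alox5ap was most like Fgd3 (0.989), Sh3kbp1 (0.983) and Elf4 (0.978), and Ptgs1 most like Eogt (0.974), Dkk3 (0.959) and Mras (0.953). Values for Avil, Trpm5, Pou2f3, Sh2d6 and Il25 rest on libraries with a few counts and are not given.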

How the data were processed

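RNA-seq raw counts per gene were deposited by the authors as 3 tables, 1 for each experiment, and used as deposited. The submitters' processing notes name STAR 2.6.1a, HTSeq 0.6.1, DESeq2 and build mm10, and the annotation release is not given in the sources used here. A table of the authors' own fold changes and p-values was not used. Counts were tested within each table with edgeR 4.0.16 in R 4.3.3 (filterByExpr, TMM scaling, quasi-likelihood test, Benjamini-Hochberg adjustment over all genes tested), and the SE is the size of the log2 fold change over the square root of F. The threshold was an adjusted p of at most 0.05 and a log2 fold change of at least 1 in size. CPM within a comparison is TMM scaled, and CPM per kb uses total counts and GENCODE M21 exon unions. The scripts were tested on simulated data. DESeq2 1.42.0, other scalings, filters and left-out libraries were alternatives. All 8 genes, the lists and the tests were chosen with earlier results of these data known. From each wider list the text names genes by lowest p or highest mean CPM, and it gives the counts of all taste genes. The ratios to Pou2f3 and Ptprc and the comparison of HC 1 with the other libraries, with the genes named there, were chosen after the values were seen. One detail of the genotype that KC and KMC share is not reported here.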

Additional observations from a re-analysis of the deposited data

How the results depend on the processing

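Without 1 library, 0 to 2 tuft cell genes passed in MC, 0 to 3 in KMC, and none in the libraries labelled HC or in the difference between the MC and HC effects. The 2 in MC appeared without control 2, and the 3 in KMC without KMC 1. In KMC, 3 passed with DESeq2, with library size without acinar genes and with one fit over the HC and KMC tables, and 4 with library size alone. Over all genes, leaving out 1 library gave 0 to 718 calls in MC (171 without MC 1, 718 without control 2), 0 to 379 in HC (379 without HC 1), 0 to 2312 in KMC and 0 to 1584 in the difference. DESeq2 gave 475, 483, 2130 and 1011 calls. Library size alone gave 1 in MC, 4715 in KMC and 98 in the difference. Library size without acinar genes gave 51 in HC and 1865 in KMC, no filter on low counts 395 in HC and 9 in KMC, and the joint fit of both tables gave 1 in HC and 3230 in KMC. The cause was not tested.

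Whether replicate numbers pair the libraries is not known. Same-numbered deviations correlated at 0.07, 0.30 and -0.30 in MC, at 0.19 and 0.17 in HC, and at 0.05 in KMC. With 2 libraries in each group, both KMC values are equal by construction and cannot decide this. With the number as a replicate block, 3 tuft cell genes passed in KMC and none elsewhere, and over all genes 339 passed in HC, 2464 in KMC and 0 in the difference.

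Directions turned for low or scattered genes, none past the threshold. Trpm5 in MC went to 0.28 with library size alone, 0.051 without acinar genes and 0.042 with the block, and ranged from -0.32 to 0.34 without 1 library. Trpm5 in KMC went to 1.35 with library size alone, 0.54 without acinar genes, 0.27 with the block and 0.0028 in one fit, and from -1.41 to 2.39 without 1 library. Without 1 library, Avil in MC ranged from -0.028 to 0.46, and in HC Dclk1 from -0.41 to 0.43, Pou2f3 from -0.62 to 0.51, Trpm5 from -0.13 to 1.08, Alox5ap from -0.18 to 0.39 and Ptgs1 from -0.19 to 0.088. The difference between the MC and HC effects for Sh2d6 was 0.23 with library size alone and ranged from -0.46 to 0.43 without 1 library, that for Pou2f3 from -1.91 to 0.068 and that for Trpm5 from -1.11 to 0.095. The differences for Sh2d6 and Pou2f3 rest on 0 to 7 counts in each library of the MC experiment, and nothing is read from them. Pou2f3 and Sh2d6 in MC and KMC, and Il25 in KMC, are limited by their low counts.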
